A study of Mus musculus with 18 samples.

Results

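The 8 genes described here are known as markers of the epithelium that lines the pancreatic duct, and they were followed in RNA from isolated pancreatic islets, the clusters of hormone-secreting cells. They were chosen by gene symbol: the keratin genes Krt19, Krt7, Krt8 and Krt18, the transcription factor gene Sox9, the mucin gene Muc1, the chloride channel gene Cftr and the osteopontin gene Spp1. All 8 were among the 24346 genes listed, and 6 of them passed the filter on low values (3 or more of the 18 libraries at 1 FPKM or above), which kept 12234 genes. FPKM is a level scaled for transcript length and for the number of fragments sequenced, so levels can be set side by side between genes.

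The mice were C57BL/6 and fell into 6 groups of 3 libraries. They either lacked exon 2 of Cdh13, the gene of the cell surface protein T-cadherin, in the genotype called deleted, or carried that exon between loxP sites, in the genotype called floxed, which the design text treats as wild type. Each genotype was sampled at the age of 8 weeks and, at 14 weeks, either still on normal chow or fed a high-fat diet for the last 6 weeks. How the exon was deleted, and whether each library came from a single animal, is not given in the sources used here, so a p-value measures only the spread between these libraries. Cdh13 itself averaged 1.34 ± 0.433, 1.67 ± 0.366 and 1.33 ± 0.141 FPKM in the floxed groups, in the order young, older on chow and older on the diet. In the deleted groups Cdh13 averaged 0.632 ± 0.242, 0.551 ± 0.136 and 0.456 ± 0.308 FPKM in that order (SD, n = 3), without overlap with the floxed group of the same age and diet. Summed FPKM per library ran from 903346 to 1394009, the number of fragments is unknown, and the insulin genes Ins1 and Ins2 held 42.1% to 54.8% of the sum.

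Duct cells carry digestive enzymes from the acinar cells, which make them, to the gut, and they add fluid and bicarbonate. Keratins are the intermediate filaments of epithelial cells and are built from pairs of a type I chain, such as keratin 18 or 19, and a type II chain, such as keratin 7 or 8. When islets are isolated from the exocrine tissue around them, fragments of acini and ducts can be carried along, which is why the 8 genes are set beside acinar enzyme genes here. In bulk RNA, fewer cells of a type and less RNA per cell cannot be told apart.

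The 8 genes did not share one level. Krt7, Krt18, Krt8 and Spp1 were abundant in every library, Krt19 and Muc1 were low, and Sox9 and Cftr, the members that are most used to define duct cells together with Krt19, were near or at 0. The name of the list thus went against the data in part: its abundant genes averaged 138 to 723 FPKM in islets where Sox9 and Cftr were near 0. Which cells held these transcripts was not tested.

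Krt7 was the most abundant member. It is a type II keratin gene on chromosome 15 (mm10, 101411043 to 101430313, plus strand). Krt7 averaged 723 FPKM over the 18 libraries, rank 44 of all genes listed. Its libraries measured 653, 727 and 711 FPKM in the floxed 8-week group and 671, 649 and 637 FPKM in the deleted 8-week group. They measured 773, 698 and 736 FPKM in floxed and 702, 784 and 758 FPKM in deleted islets at 14 weeks on chow. High-fat diet libraries measured 794, 803 and 756 FPKM in floxed and 709, 735 and 722 FPKM in deleted islets. The highest library was 1.26 times the lowest.

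Krt8 and Krt18, the type II and type I chains that pair in simple epithelia, lie next to each other on chromosome 15, with 23.7 kb between them. Krt18 (102028180 to 102032027, plus strand) averaged 197 FPKM and spanned 174 to 240 FPKM, a ratio of 1.37. Krt8 (101996698 to 102004482, minus strand) averaged 138 FPKM and spanned 114 to 181 FPKM, a ratio of 1.58. Krt8 measured 120, 123 and 128 FPKM in floxed and 118, 114 and 118 FPKM in deleted libraries at 8 weeks, where all 6 libraries lay below every 14-week library on chow. At 14 weeks on chow it measured 181, 161 and 133 FPKM in floxed and 139, 152 and 142 FPKM in deleted libraries. After the diet it measured 127, 130 and 134 FPKM in floxed and 166, 150 and 144 FPKM in deleted libraries, and these groups did not overlap.

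Krt19 was low beside the other keratins of the list. This type I keratin gene (chromosome 11, 100140810 to 100148665, minus strand) is the one most used to mark pancreatic ducts. It measured 0.779, 1.36 and 3.00 FPKM in the floxed and 0.519, 1.79 and 1.71 FPKM in the deleted 8-week libraries. At 14 weeks on chow it measured 9.86, 5.25 and 3.79 FPKM in floxed and 5.73, 6.03 and 5.19 FPKM in deleted libraries. After the diet it measured 0.758, 0.786 and 1.25 FPKM in floxed and 2.64, 2.69 and 2.40 FPKM in deleted libraries. All 6 libraries at 14 weeks on chow lay above all 12 others, and the highest library was 19 times the lowest. Next came the deleted high-fat diet group, which lay above the floxed one and overlapped the floxed 8-week group.

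Among the 48 keratin genes listed, Krt7, Krt18 and Krt8 held 98.3% of the family's summed mean level. Only 8 keratin genes passed the filter and 14 were at 0 in every library. Behind the leading genes came Krt80 (5.15 FPKM), Krt10 (3.76), Krt222 (3.67), Krt19 (3.09), Krt1 (0.807), Krt83 (0.597) and Krt17 (0.287), all as means over 18 libraries. The type II members Krt7 and Krt8 together were 3.82 to 4.83 times the type I members Krt18 and Krt19 together. That ratio averaged 4.34 ± 0.0653 in floxed and 4.11 ± 0.0581 in deleted libraries at 8 weeks, and 4.63 ± 0.247 and 4.41 ± 0.116 on the high-fat diet (mean ± SD, n = 3). At 14 weeks on chow the order of the means was the other way, with 4.15 ± 0.290 in floxed and 4.25 ± 0.170 in deleted libraries. The genotypes overlapped there and on the high-fat diet, but not at 8 weeks, and the ratio was not tested.

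**Figure D1:**
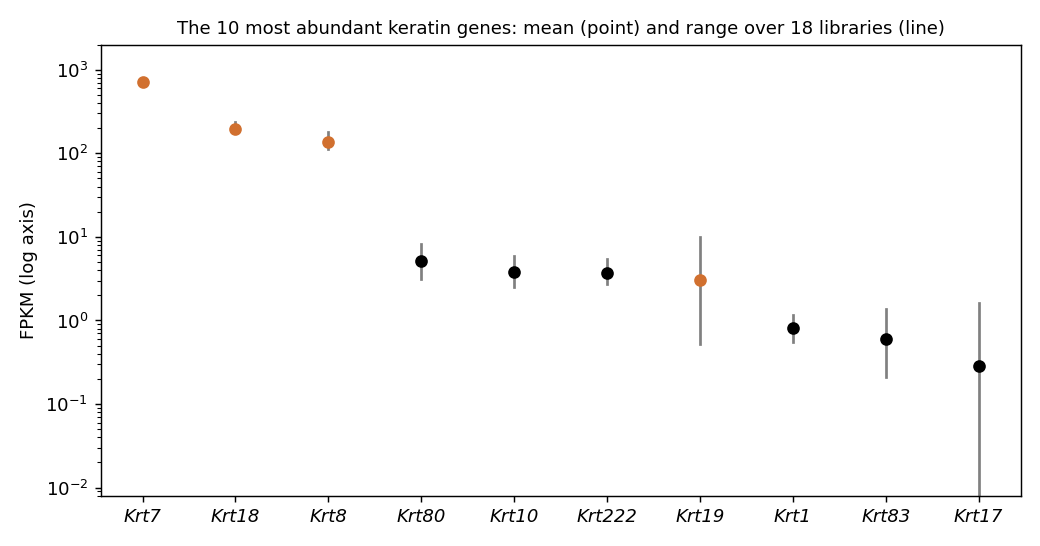
The 10 most abundant keratin genes in order of their mean level, with FPKM on a log axis; points are means over 18 libraries, lines run from the lowest to the highest library, and the 4 listed duct genes are in orange. Krt7, Krt18 and Krt8 stood above 100 FPKM, while Krt19 ranked 7 and had a range from 0.519 to 9.86 FPKM; the line of Krt17, which was at 0 in its lowest library, runs to the bottom of the axis.

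Spp1 encodes osteopontin, a secreted phosphoprotein of duct cells that is also made by macrophages and other cells and binds integrins and CD44. The gene lies on chromosome 5 (104435118 to 104441050, plus strand). Its level averaged 257 FPKM, rank 294. Spp1 measured 158, 222 and 181 FPKM in floxed and 278, 278 and 295 FPKM in deleted libraries at 8 weeks, without overlap. At 14 weeks on chow it measured 356, 452 and 354 FPKM in floxed and 415, 338 and 244 FPKM in deleted libraries. Diet-fed libraries measured 145, 188 and 257 FPKM in floxed and 144, 177 and 146 FPKM in deleted libraries. The mean was highest at 14 weeks on chow in each genotype, but in deleted islets that group overlapped the 8-week group.

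Muc1 encodes a membrane mucin of the apical surface of epithelia (chromosome 3, 89229057 to 89233381, plus strand). It measured 0.969, 1.43 and 1.63 FPKM in floxed and 1.38, 1.66 and 2.62 FPKM in deleted libraries at 8 weeks. At 14 weeks on chow Muc1 measured 3.89, 4.79 and 4.69 FPKM in floxed and 2.51, 2.80 and 2.54 FPKM in deleted libraries. After the diet it measured 1.05, 0.967 and 2.69 FPKM in floxed and 2.75, 1.62 and 1.34 FPKM in deleted libraries. The floxed group at 14 weeks on chow stood above all 15 other libraries.

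The 250 bases before the start sites of these 2 genes are shown because Spp1 and Muc1 shared a pattern over age and diet in floxed islets. The sequences are from RefSeq (GRCm38.p6, the mm10 assembly), 5′ to 3′ on the plus strand, and end at the base before the start. Muc1 covers chr3:89228806-89229055 and Spp1 covers chr5:104434861-104435110. A further Spp1 start in that table, with the window chr5:104435942-104436191, held no match to any motif searched and is not shown. Capitals mark matches to TATAAA, the TATA box, and to ACCACA, the core that RUNX factors bind, searched on both strands.
Muc1: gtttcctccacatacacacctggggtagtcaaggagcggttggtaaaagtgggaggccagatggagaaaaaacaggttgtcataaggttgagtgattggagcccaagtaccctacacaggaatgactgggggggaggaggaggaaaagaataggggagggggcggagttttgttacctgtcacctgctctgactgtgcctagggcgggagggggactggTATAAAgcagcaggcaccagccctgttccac
Spp1: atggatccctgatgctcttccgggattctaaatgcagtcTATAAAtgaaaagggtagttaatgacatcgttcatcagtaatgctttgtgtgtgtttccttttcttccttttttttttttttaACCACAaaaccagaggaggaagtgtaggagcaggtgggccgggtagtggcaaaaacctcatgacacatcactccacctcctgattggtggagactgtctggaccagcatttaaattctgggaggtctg
In Muc1 the TATA match began 31 bases before the start, and in Spp1 it began 211 bases before it. The ACCACA match of Spp1 began 128 bases before the start, and Muc1 had none. TATAAA occurred in 12.4% and ACCACA in 14.0% of 32851 windows of the same length. The AP-1 site TGANTCA, in 6.75% of windows, was in neither. A match is a description of letters, not of binding.

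Sox9 and Cftr were not tested because no library reached 1 FPKM. Sox9 (chromosome 11, 112782224 to 112787760), the transcription factor that keeps duct and progenitor identity, was above 0 in all 18 libraries, between 0.0491 and 0.530 FPKM with a median of 0.255. Its highest group was the floxed one at 14 weeks on chow, with 0.530, 0.470 and 0.352 FPKM, which overlapped the deleted 8-week group (0.193, 0.481 and 0.221 FPKM). Cftr (chromosome 6, 18170687 to 18322768), the anion channel through which duct cells secrete, was listed at 0 in 11 of 18 libraries and reached at most 0.0828 FPKM. It was above 0 in all 3 floxed libraries at 14 weeks on chow (0.0228, 0.0828 and 0.0227 FPKM), and in none of the deleted libraries of that age and diet.

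**Figure D2:**
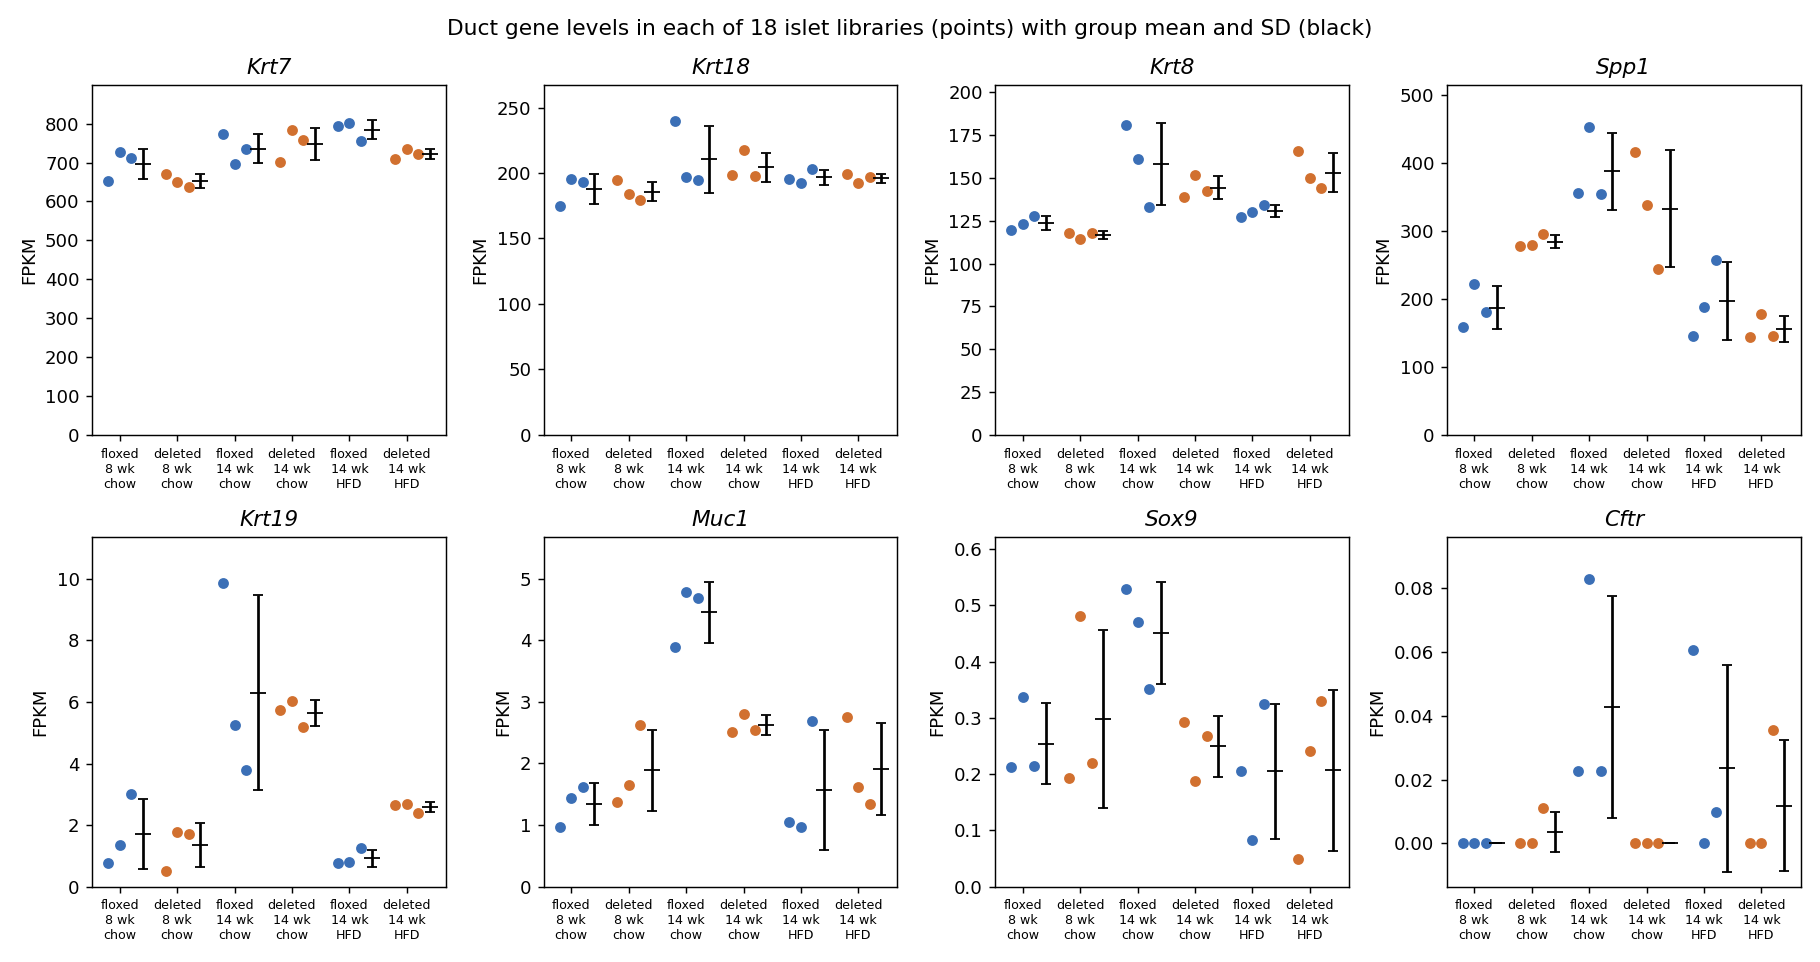
FPKM of the 8 genes in each library by group, with floxed libraries in blue and deleted libraries in orange; black bars give the group mean and SD (n = 3). Krt7, Krt18 and Krt8 kept within 1.26, 1.37 and 1.58 times of their lowest library, while Krt19, Muc1 and Spp1 had their highest group means, in each genotype, at 14 weeks on chow.

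Age was compared at 14 against 8 weeks on chow. Differences are given on the scale of log2(FPKM + 1), which understates the change of genes at low FPKM, and genes were called at an adjusted p below 0.05 from limma. Over both genotypes 4 of the 6 tested members rose and none fell, where 7.88% of all genes were called, and the members' median was 0.47 against -0.02 for all genes. Krt19 rose by 1.49 (SE 0.213, adjusted p = 3.93e-04), Muc1 by 0.79 (SE 0.151, adjusted p = 0.00281), Spp1 by 0.62 (SE 0.150, adjusted p = 0.0217) and Krt8 by 0.32 (SE 0.0577, adjusted p = 0.00140). Krt7 (0.14, adjusted p = 0.0537) and Krt18 (0.15, adjusted p = 0.0860) did not pass.

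Within floxed islets 4 members rose with age, where 4.15% of genes were called. Mean Krt19 was 3.68 ± 1.78 (SE) times its 8-week level, Muc1 3.32 ± 0.526 times and Spp1 2.07 ± 0.269 times. Their log2 differences were 1.43 (adjusted p = 0.0132), 1.23 (0.00246) and 1.05 (0.0132), and Krt8 was at 0.34 (0.0198). Within deleted islets 2 members rose, where 2.91% of genes were called. Krt19 was at 4.21 ± 1.31 times its 8-week level (1.56, adjusted p = 0.00966) and Krt8 at 0.30 (adjusted p = 0.0488). Spp1 was at 0.19 (adjusted p = 0.735) and Muc1 at 0.35 (adjusted p = 0.474) there.

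The difference between genotypes in the age effect did not pass for any member, where 0.196% of genes were called by limma. Unadjusted, 2 members had p below 0.05, as had 1090 of all 12234 genes tested. These members were Muc1 at -0.88 (95% interval -1.51 to -0.24, adjusted p = 0.316) and Spp1 at -0.85 (-1.50 to -0.21, adjusted p = 0.360). Krt19 was at 0.13 (-0.77 to 1.04). The call of Krt8 in deleted islets ended in 22 of 28 alternatives. In floxed islets the calls of Krt19 and Krt8 ended when the fit held only the 6 libraries compared (adjusted p = 0.182 and 0.0999). Those of Krt19, Spp1 and Krt8 ended with acinar enzyme level as a covariate (0.0883, 0.0579 and 0.392). With it the differences were 1.56, 1.24 and 0.21, so those of Krt19 and Spp1 had not shrunk. In floxed islets the calls of Krt19, Krt8 and Spp1 ended without replicate 1 of the 8-week group (adjusted p = 0.0630, 0.0809 and 0.0635). Those of Krt19 and Krt8 also ended without its replicate 2 (0.0525 and 0.0580), that of Krt8 without replicate 1 or 2 of the 14-week group (0.0914 and 0.0923), and that of Spp1 without its replicate 2 (0.0643). Over both genotypes the call of Spp1 ended without replicate 1 of either 8-week group or replicate 2 of the floxed 14-week group (0.0576, 0.0536 and 0.0565). Krt7 passed over both genotypes without replicate 2 of the floxed 8-week group or replicate 1 of either deleted group on chow (0.0492, 0.0428 and 0.0430).

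The high-fat diet was compared with chow at 14 weeks. This comparison and that of age share the 14-week chow libraries, so a fall here and a rise there rest partly on the same values. Over both genotypes 3 of 6 tested members fell and none rose, where 34.6% of all genes were called, and the members' median was -0.42 against -0.00 for all genes. By itself the count lay near that share. Krt19 fell by 1.37 (SE 0.213, adjusted p = 1.48e-04), Spp1 fell by 1.03 (SE 0.150, adjusted p = 1.47e-04) and Muc1 fell by 0.75 (SE 0.151, adjusted p = 8.53e-04). Krt7 (0.02, adjusted p = 0.717), Krt8 (-0.09, 0.232) and Krt18 (-0.07, 0.279) did not pass.

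In floxed islets 4 members fell on the diet, where 28.5% of genes were called. Mean Krt19 on chow was 6.77 ± 2.28 (SE) times that on the diet (log2 -1.84, adjusted p = 3.61e-04), Muc1 2.84 ± 1.03 times (-1.15, 6.17e-04) and Spp1 1.97 ± 0.366 times (-1.0, 0.00335). Krt8 was at -0.27 (adjusted p = 0.02), with overlapping groups, and its call ended without replicate 1 or 2 of the chow group or replicate 1 of the diet group (adjusted p = 0.136, 0.0662 and 0.0670). It also ended with only these 6 libraries in the fit (0.0606) and with acinar enzyme level as a covariate (-0.13, adjusted p = 0.512). In deleted islets 1 member fell, where 15.0% of genes were called: Spp1, which on chow was 2.13 ± 0.351 times its level on the diet (-1.06, adjusted p = 0.00444). That count lay near the share of all genes and is not a result about the list. Krt19 was at -0.89 (adjusted p = 0.0580) with no overlap between the groups, and Muc1 at -0.35 (adjusted p = 0.307). When the fit held only these 6 libraries the Krt19 difference passed (adjusted p = 0.000599), as it did without replicate 1 or 3 of the floxed 8-week group, replicate 1 of the deleted 8-week group, or replicate 1 or 3 of the floxed chow group (0.0212 to 0.0382).

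No member passed for a difference between genotypes in the diet effect, where 3.53% of genes were called. Unadjusted, 3 members had p below 0.05, as had 2089 of all 12234 genes tested. These members were Krt8 at 0.35 (95% interval 0.11 to 0.59, adjusted p = 0.110), Muc1 at 0.80 (0.17 to 1.43, adjusted p = 0.170) and Krt19 at 0.95 (0.05 to 1.85, adjusted p = 0.266). The Krt8 value was 0.47 and passed without replicate 3 of the floxed chow group (adjusted p = 0.0109), and Krt8 then also fell over both genotypes (-0.15, adjusted p = 0.0201). The Muc1 value was 1.09 and passed without replicate 3 of the floxed high-fat diet group (adjusted p = 0.0286).

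With quantile normalization, which forces one distribution on all libraries, Krt7 (-0.28, adjusted p = 8.71e-05), Krt8 (-0.18, 0.0332) and Krt18 (-0.21, 0.00642) also fell over both genotypes. For Krt7 this was a change of sign. Krt8 and Krt18 were below 0 in both fits over both genotypes, so for them the scaling changed the size and the call. Summed FPKM was 1337804 to 1394009 on the diet and 903346 to 1078671 on chow at 14 weeks. Whether that gap lay behind the shift was not tested.

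**Figure D3:**
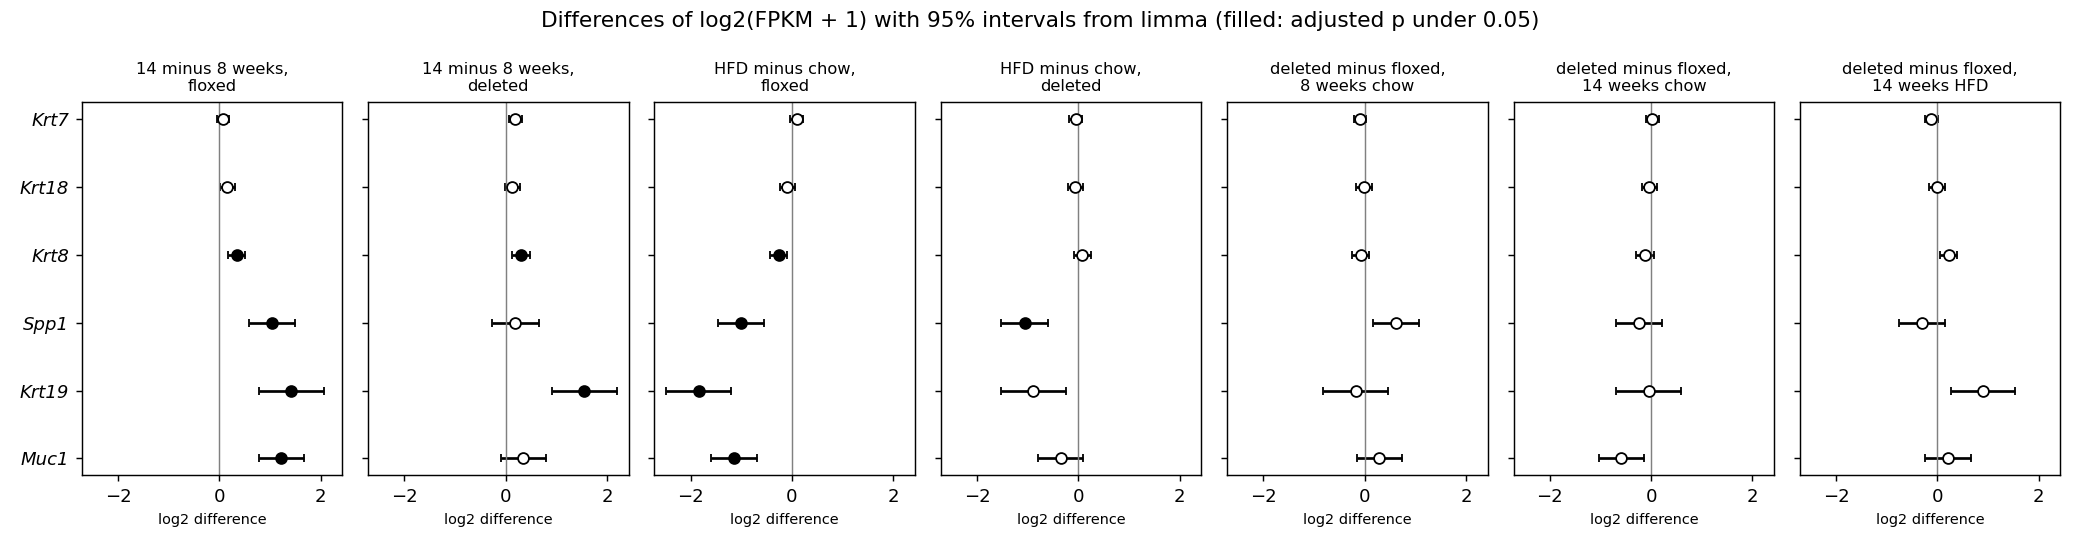
Differences of log2(FPKM + 1) for the 6 tested members in 7 comparisons, with 95% intervals from limma; filled points passed at an adjusted p below 0.05. The filled points lie to the right in the comparisons of age and to the left in those of diet, and the 3 comparisons of genotype hold none.

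Genotype was compared within each condition, which asks whether loss of the Cdh13 exon moved the duct genes. No member passed at 8 weeks, at 14 weeks on chow, on the high-fat diet or over the 3 conditions, where limma called 0.548%, 0.114%, 10.7% and 3.61% of genes. At an unadjusted p below 0.05 in limma there were 1, 1, 2 and 0 of 6 members in that order. Of all 12234 genes tested, 1535, 976, 3146 and 2159 were below it, so these counts are not read as a result about the list. Spp1 at 8 weeks in deleted libraries was 1.52 ± 0.154 (SE) times its floxed level (0.61, 95% interval 0.15 to 1.07, adjusted p = 0.233), and passed with only these 6 libraries in the fit (adjusted p = 0.0497). Muc1 at 14 weeks on chow was at 0.588 ± 0.0428 of its floxed level (-0.59, -1.04 to -0.14, adjusted p = 0.379).

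After the high-fat diet Krt19 in deleted libraries was 2.77 ± 0.484 times its floxed level, and all 3 deleted libraries lay above all 3 floxed ones (0.90, 95% interval 0.26 to 1.54, adjusted p = 0.0675). Krt8 was at 0.23 on that diet (0.06 to 0.40, adjusted p = 0.0822), also without overlap. With only these 6 libraries in the fit both passed (adjusted p = 0.00226 for Krt19 and 0.0220 for Krt8). The Krt19 difference also passed with sample quality weights (0.92, adjusted p = 0.0364) and without any of 5 libraries of other groups, the same 5 as for diet in deleted islets (0.0266 to 0.0462). Krt8 passed without replicate 1 or 3 of the floxed chow group at 14 weeks (0.0422 and 0.0262). Over the 3 conditions the intervals were -0.15 to 0.59 for Krt19, -0.14 to 0.01 for Krt7, -0.09 to 0.11 for Krt8, -0.11 to 0.07 for Krt18, -0.29 to 0.23 for Muc1 and -0.24 to 0.29 for Spp1.

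Carry-over of exocrine tissue was measured by 28 genes of acinar enzymes, such as trypsinogens, elastases and lipases. Their share of summed FPKM was 0.0124%, 0.0303% and 0.0180% in floxed and 0.171%, 0.0364% and 0.00563% in deleted libraries at 8 weeks. At 14 weeks on chow it was 0.758%, 0.324% and 0.135% in floxed and 0.211%, 0.365% and 0.341% in deleted libraries. After the diet it was 0.0166%, 0.0393% and 0.00265% in floxed and 0.0245%, 0.0168% and 0.0107% in deleted libraries. Its mean was thus highest at 14 weeks on chow in each genotype, as were those of Krt19, Muc1 and Spp1.

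The log2 share rose by 3.63 with age and fell by 4.46 on the diet, each with p = 0.005 in a two-sided exact permutation test within genotypes, the smallest p that 400 arrangements allow. The difference by genotype did not pass (0.38, exact permutation p = 0.5715 over 8000 arrangements). Over both genotypes 19 of 24 tested enzyme genes rose with age and 23 fell on the diet, with medians of 3.22 and -3.74. Of all genes, 7.88% and 34.6% were called there. Krt19, the member with the largest differences, was at 1.49 and -1.37 in the same comparisons.

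Within groups no slope of a member on the acinar genes passed. When the mean log2 level of the 28 enzymes was added to the model beside the 6 groups, its slope passed for none of the 6 members, where limma called 0.253% of all genes, or 31 genes, of which 22 were acinar enzymes themselves. The slope, in log2 units of the gene per log2 unit of the enzyme mean, was -0.05 for Krt19 (95% interval -0.29 to 0.20), 0.04 for Krt7 (-0.01 to 0.08), 0.04 for Krt8 (-0.02 to 0.10) and 0.04 for Krt18 (-0.01 to 0.10). It was -0.07 for Spp1 (-0.23 to 0.10) and -0.18 for Muc1 (-0.32 to -0.04, adjusted p = 0.652). Muc1 was the 1 member with an unadjusted p below 0.05, where 813 of 12234 genes had one. The median slope of the tested enzymes was 1.32. The covariate is the mean of these enzymes themselves, so their high slopes and calls were built in and are no yardstick for the members.

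Over the 18 libraries, which share groups, Pearson's r of log2(FPKM + 1) with the enzyme mean ran from 0.265 for Krt7 to 0.683 for Krt19. After the group means were removed it ran from -0.571 for Muc1 to 0.568 for Krt7, with Krt19 at -0.109. Replicate 1 of the floxed group at 14 weeks on chow had the highest acinar share of all 18 libraries and the highest Krt19, Krt8 and Krt18. Replicate 1 of the deleted 8-week group had the highest acinar share at 8 weeks and the lowest Krt19 of all libraries, 0.519 FPKM. The diet groups did not overlap in Krt19 between genotypes, and the range of acinar shares in deleted libraries there lay inside that of floxed libraries. These are picked libraries and groups, and the part of carry-over in the Krt19 levels was not tested.

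With the acinar mean as a covariate, the rise with age over both genotypes was 1.61 for Krt19 (adjusted p = 0.0270) and 1.24 for Muc1 (adjusted p = 0.00335). It no longer passed for Spp1 (0.79, adjusted p = 0.120), though that difference was larger than without the covariate (0.62). Nor did it pass for Krt8 (0.21, adjusted p = 0.239), which was smaller than without the covariate (0.32). The acinar level itself differed between ages and diets, so a lost call does not show that it took up the difference. The falls on the diet were -1.50 for Krt19 (adjusted p = 0.0237), -1.28 for Muc1 (0.00243) and -1.23 for Spp1 (0.0125), and these 3 passed, while the fall of Krt8 in floxed islets did not.

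**Figure D4:**
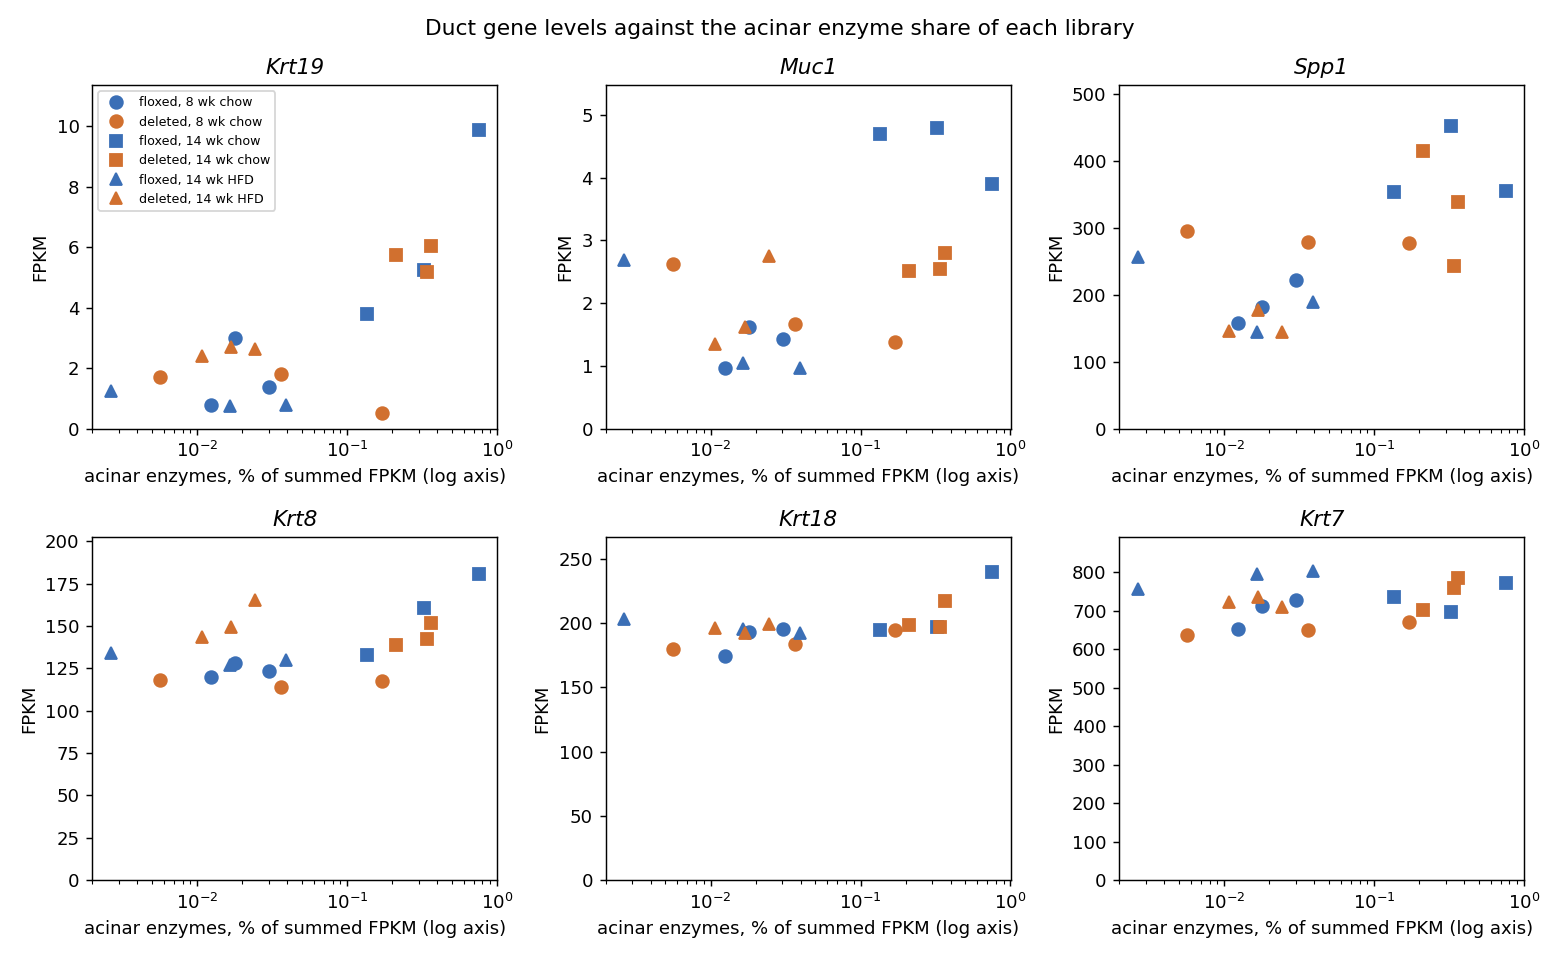
FPKM of the 6 tested members against the share of acinar enzymes in summed FPKM (log axis), 1 point for each of 18 libraries; colour gives the genotype and shape the age and diet. The squares, 14 weeks on chow, include the libraries with the highest acinar share, Krt19, Muc1 and Spp1, while within the other groups Krt19 stayed between 0.519 and 3.00 FPKM over acinar shares from 0.00265% to 0.171%.

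Macrophages are another source of Spp1. The summed level of 13 macrophage markers was 345 to 390 FPKM in floxed libraries at 14 weeks on chow, against 225 to 261 at 8 weeks and 201 to 227 on the high-fat diet, without overlap. In deleted libraries it was 275 to 340 FPKM at 14 weeks on chow, against 234 to 258 and 207 to 222. Over both genotypes 10 of 12 tested markers rose with age and 9 fell on the diet, where 7.88% and 34.6% of all genes were called. The complement gene C1qb rose by 0.71 with age (adjusted p = 3.80e-06), and the lysozyme gene Lyz2 fell by 1.28 in floxed islets on the diet (adjusted p = 8.96e-08). With the mean of these markers as a covariate no member passed for age or diet, but the members' differences did not move alike. Over both genotypes Krt19 was at 1.55 for age and -1.42 for diet, as large as without the covariate, while Spp1 was at -0.28 and -0.18 and Muc1 at -0.03 and 0.03. The markers differed between the groups themselves, and with the covariate 0 and 7 of all genes passed for age and diet over both genotypes. The part of macrophages in the differences of the duct genes was not tested beyond this.

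A further list of 25 duct and epithelial genes gave no common direction. Of its 15 tested genes, 4 rose and 2 fell with age over both genotypes (median 0.11), and 2 rose and 4 fell on the diet (median 0.05), where 7.88% and 34.6% of all genes were called. The count on the diet was near that share and is not a result about the list. The trefoil factor gene Tff2 rose by 1.87 with age (adjusted p = 0.0162), as did Lcn2, which encodes lipocalin 2 (1.18, adjusted p = 0.0141), and the epithelial transcription factor gene Ehf (0.47, adjusted p = 0.00553). The adhesion gene Epcam fell by 0.20 (adjusted p = 0.0115). On the diet the tight junction gene Cldn4 fell by 1.15 in floxed islets (adjusted p = 8.61e-07). Its relative Cldn3 rose by 0.70 there (adjusted p = 1.53e-04). Tff2 and Ehf were among the 4 genes that fell on the diet over both genotypes, while 2 rose. Tff2 was at -2.34 (adjusted p = 0.000875) and Ehf at -0.43 (adjusted p = 0.00224). Tff2 also fell within floxed (-2.45, adjusted p = 0.00815) and deleted islets (-2.23, adjusted p = 0.0230). Both genes thus rose with age and fell on the diet, as Krt19, Muc1 and Spp1 did. These comparisons share chow libraries, so the pattern rests partly on the same values. Between genotypes 1 gene of the list was higher in deleted islets after the diet, Epcam (0.24, adjusted p = 0.0258). In that comparison 10.7% of all genes were called, so the count is not a result about the list.

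The genes that work with Cftr in bicarbonate secretion gave 8 tested genes of 16. Over both genotypes 1 rose with age, the potassium channel gene Kcnn4 (0.63, adjusted p = 0.00365), and 1 rose and 1 fell on the diet. Among all genes 7.88% and 34.6% were called for age and diet over both genotypes. After the diet the channel subunit gene Kcne3 was lower in deleted than in floxed islets (-0.98, adjusted p = 0.00168), and Slc9a3r1, which encodes a scaffold that binds CFTR, was higher (0.42, adjusted p = 0.0108). Of all genes, 10.7% were called in that comparison. Among 8 tested genes of desmosomes and plakins, which anchor keratin filaments, none passed for age, and 1 fell on the diet over both genotypes. That gene was Dsp, of desmoplakin (-0.28, adjusted p = 0.00516).

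Of 16 genes of the Notch and Hippo pathways, which are active in duct cells, 11 were tested. Over both genotypes 1 rose with age and 5 fell on the diet, where 7.88% and 34.6% of all genes were called. Both counts lay near those shares. In floxed islets 3 rose with age, where 4.15% of genes were called. They were Cyr61 (1.44, adjusted p = 0.00228), Ctgf (0.99, adjusted p = 0.00426) and Wwtr1 (0.48, adjusted p = 0.0208). The first 2 are targets of the coactivators YAP and TAZ, and the last is the gene of TAZ. The same 3 genes were among 5 that fell on the diet in floxed islets, at -1.54, -1.21 and -0.47. That comparison shares the chow libraries, and 28.5% of genes were called in it. Ctgf (-0.81, adjusted p = 0.00548) and Wwtr1 (-0.41, 0.0212) fell in deleted islets too, where 15.0% of genes were called. For Cyr61 the diet effect differed between genotypes (1.37, adjusted p = 0.0321), where 3.53% of genes were called. Of 8 tested receptor genes for osteopontin, 2 rose and 3 fell on the diet over both genotypes, where 34.6% of all genes were called. In floxed islets the integrin genes Itga5 (-1.14, adjusted p = 4.86e-05), Itgav (-0.51, 0.00138) and Itgb1 (-0.28, 0.00450) fell and Cd44 rose (0.28, adjusted p = 0.0300). These integrin genes fell in deleted islets too, at -1.05, -0.48 and -0.29 (adjusted p = 2.62e-04, 0.00425 and 0.00586). Itga5 rose with age in floxed islets (0.79, adjusted p = 0.00828).

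Counts of called markers of other cell types are read against the 7.88% and 34.6% of all genes called for age and diet over both genotypes. Of 9 tested fibroblast and stellate cell genes, 1 rose with age and 7 fell on the diet over both genotypes, and of 9 endothelial genes 0 rose or fell with age and 4 fell on the diet. Of 12 endocrine genes, 2 rose and 5 fell with age, and 6 rose on the diet, so that the endothelial and endocrine counts on the diet lay near the share of all genes. Of 6 measured mesothelial markers, which are considered because mesothelium also makes keratins, Wt1, Upk3b and Lrrn4 were near 0. Of the 2 tested, Msln fell with age (-0.52, adjusted p = 1.29e-05) and rose on the diet over both genotypes (0.21, adjusted p = 0.00832). It also rose on the diet within deleted islets (0.43, adjusted p = 0.00162). On the high-fat diet Msln was higher in deleted than in floxed islets (0.67, adjusted p = 3.28e-05). The other, Gpm6a, fell on the diet in floxed islets (-0.41, adjusted p = 0.0369). Of the acinar transcription factors only Bhlha15 was tested, and it did not pass for age or diet. The part of these cell types in the duct gene differences was not tested.

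The genes most alike to each member over the 18 libraries differed from member to member. By Pearson's r of log2(FPKM + 1), given as a description over libraries that share groups, Krt19 was nearest to Clu (0.896), Arfgap1 (0.882) and Abat (0.881). Muc1 was nearest to Lrp1 (0.932), Icam1 (0.872) and Flna (0.868), and Spp1 to Il11 (0.935), Cald1 (0.928) and Itga5 (0.920). Krt7 was nearest to Dpp7 (0.856), Nek8 (0.854) and Pcp4 (0.848), and Krt18 to Reg2 (0.769), Tspan1 (0.759) and Krt8 (0.754). Fbxo10 (0.821) and Anxa6 (0.817) were among the 3 genes nearest to Krt8. Krt18 was the only member with another member among its 3 nearest, its neighbour Krt8, and their r was 0.724 after the group means were removed. For the mean of the 6 members, each standardised, the nearest genes outside the list were Clu (0.948), Wars (0.875), Mcm2, Spryd3, Reg3b, Abat, Egfl7, Ctsz, Abcf3 and Sprr1a (0.843).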

How the data were processed

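The authors deposited gene-level values that were taken as FPKM because the submitters' processing notes name Cufflinks 2.2.1; the files themselves do not name the unit. The same notes list Bowtie2 2.2.3, TopHat2 2.0.13 and SAMtools 0.1.19, with build mm10, and no source read here gives the annotation or any filter. Nextera libraries were prepared from full-length SMART-Seq HT cDNA, per the labels' protocols, a method that does not mark strand. The values look rescaled between libraries, since median ratios to the geometric mean library were 1.0037 to 1.0079. The value of 1 fragment spanned about 1.38 times between libraries in the narrow range searched. No 2 tables were identical, and the labels name no batch.

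Values were modelled as log2(FPKM + 1) with limma 3.58.1 (R 4.3.3, statmod 1.5.0), with 6 group means, trended robust variances and Benjamini-Hochberg adjustment over 12234 genes, and called below 0.05. The fit was tested on simulated data. Shares were compared by exact permutation. Ratios of means carry a delta-method SE. Positions are from GENCODE M21 (mm10); promoter sequences, from RefSeq, matched 6 of 8 members. Python 3.11.15, pandas 2.3.3 and matplotlib 3.10.9 were used.

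The members and the 13 gene lists were chosen with earlier results of these data known. Named were all members, up to 4 called genes with the smallest p per list, the 10 most abundant keratins, and the 3 genes most alike to each member. Of these, 1 gene is not reported here. Replicate numbers are shared between groups, but the labels do not say that they pair libraries.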

Additional observations from a re-analysis of the deposited data

Results flagged for a closer look

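Krt8 at 8 weeks was lower in every deleted than in every floxed library (-0.08). On the high-fat diet it was higher in every deleted than in every floxed library (0.23), so these differences had opposite signs. The interval from limma at 8 weeks ran from -0.25 to 0.09, so no direction of a genotype effect was shown there. Krt8 was flagged for this pattern, and how many of all genes separate in this way is not given here. The gap between both differences was 0.31 on the log2 scale, and it was not tested. Neither difference passed in limma (adjusted p = 0.738 and 0.0822).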

How the results depend on the processing

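The fits were repeated with other settings and without each of the 18 libraries. Of 2140 member differences recomputed, 1610 were not called either way, 75 of them with a change of sign. Calls were kept in 433, lost in 62 (5 with a change of sign) and gained in 35 (2 with a change of sign). With the macrophage mean as a covariate the counts of members called became 0 for diet in floxed, in deleted and in both genotypes and for age in the same; Spp1 changed sign in floxed islets for diet (0.20, adjusted p = 0.968) and age (-0.23) and over both for age (-0.28), and Muc1 over both for diet (0.0256) and age (-0.0291). Krt19 did not shrink (-1.92 for diet in floxed islets, -1.42 for diet and 1.55 for age over both). That covariate differs between the groups. With quantile normalization 2 members were called for diet in deleted islets and 6 over both, with Krt7 at -0.18 in floxed islets (adjusted p = 0.0324) and -0.28 over both. Keeping only genes with a mean of 5 FPKM or more, which drops Krt19 and Muc1, gave 2 and 1 for diet in floxed and over both, and 2, 1 and 2 for age in floxed, deleted and both.

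With the acinar covariate 1, 1 and 2 members were called for age in floxed, deleted and both. That covariate differs between the groups too. With only the groups compared the counts were 1 for genotype at 8 weeks, 2 for genotype and 2 for diet in deleted islets on the high-fat diet, and 2 and 1 for age in floxed and deleted islets. Sample quality weights gave 1 for genotype on the high-fat diet, 2 for diet in deleted islets and 1 for the interaction with diet. No filter on low values and median-ratio scaling each gave 1 for age in deleted islets. The cause of these shifts was not tested.

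Leaving out 1 library, counts ran from 3 to 4, 1 to 2 and 3 to 4 for diet in floxed, deleted and both, 1 to 4, 1 to 2 and 3 to 5 for age in the same, 0 to 2 for genotype on the high-fat diet and 0 to 1 for the interaction with diet. They stayed 0 for the other genotype comparisons, the interaction with age and the acinar slope. The difference in log2 acinar share ran from 3.00 to 4.23 for age, -4.89 to -3.92 for diet and -0.02 to 0.80 for genotype.

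The replicate number as a block changed 1 count, age in deleted islets, from 2 to 1 (Krt8, adjusted p = 0.0594). Libraries of other groups with the same number had correlated deviations of -0.159 to 0.232 (median 0.041), and 14 of 18 libraries correlated best with their own number, a hint from the data and not the design. The fragment number is unknown, so Sox9 and Cftr cannot be told from counting noise.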
